A study of Mus musculus with 2 samples.

Results

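The genes described here encode the signalling machinery of the TGF-beta family, which comprises transforming growth factors beta, activins and bone morphogenetic proteins (BMPs). They were read on 2 arrays of polyadenylated RNA from mouse testes at day 10 after birth, the first from Mili+/- (heterozygous) and the second from Mili-/- (homozygous mutant) mice. The mutated gene, Piwil2, encodes MILI, a Piwi protein of germ cells that works with piRNAs. In the mutant, per the labels, germ cells stop in early meiotic prophase, and day 10 was chosen because it precedes the first apoptotic cells. Both groups carry at least 1 mutant allele, so no wild-type testis was compared, and the labels give neither strain nor the number of animals behind each array.

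Members were the probe sets annotated to exactly 1 gene whose symbol belongs to the families Bmp, Bmpr, Smad, Smurf, Tgfb, Acvr, Gdf, Ltbp, Fst, Nog, Chrd or Id1 to Id3. The rule found 63 probe sets for 51 genes, of 10833 probe sets and 8251 genes with 1 symbol. A gene was represented by its brightest probe set. It passed the brightness filter when at least 1 array reached that array's median signal (38.5 for Mili+/- and 41.6 for Mili-/-). Of the 51 genes 25 passed, all of them on both arrays, and 26 did not. No Smurf gene was among those measured.

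Ligands of this family bind pairs of type I and type II serine/threonine kinase receptors. TGF-beta and activin receptors phosphorylate SMAD2 and SMAD3, BMP receptors phosphorylate SMAD1, SMAD5 and SMAD9, and both kinds of SMAD act in the nucleus with SMAD4. Secreted antagonists hold ligands away from receptors, latent TGF-beta binding proteins store TGF-beta in the matrix, and the inhibitory SMAD6 and SMAD7 shut the pathway down from inside. In the postnatal testis, activin acts on Sertoli cell growth, and BMP4 is known to act on spermatogonia.

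Each genotype had 1 array, so no difference below has a replicate or a p-value, and each describes these arrays only. Differences are log2 signal of Mili-/- minus Mili+/- after each array was centred on its median. The available yardstick was the disagreement between probe sets of 1 gene, an SD of 0.31 over 720 genes, which leaves out differences between animals and between hybridisations. The median of all 5095 genes past the filter was -0.13, and it was -0.02 without centring, a shift of 0.11. The text therefore also gives differences from this median gene, which centring does not move. The targeted transcript, Piwil2, had no probe set in the annotation used here, and the genotype labels were not checked on it.

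Among the 25 members past the filter, none differed 2-fold, where 0.844% of all genes past the filter did. At 1.5-fold, Smad6 was higher on the Mili-/- array, and Smad1 and the BMP-2-inducible kinase gene Bmp2k were lower. Of all genes, 2.47% were as much higher and 5.04% as much lower. The members' median difference was -0.07, 0.06 above the median gene, with 14 members above that gene and 11 below it. Beyond the SD of 0.31 from the median gene, 8 members were higher (13.7% of all genes were) and 5 lower (12% were). Of these, 7 higher and 5 lower members were beyond it under all 4 scalings tried, shares of all genes being 11.9% and 10.9%. The higher members include Acvrl1 and Bmp1, whose probe sets disagreed in sign, and averaging each gene's probe sets past the filter left 6 higher and 5 lower. The members therefore spread to both sides, and 23 of 25 lay within -0.69 and 0.58, the central 95% of all genes.

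**Figure D1:**
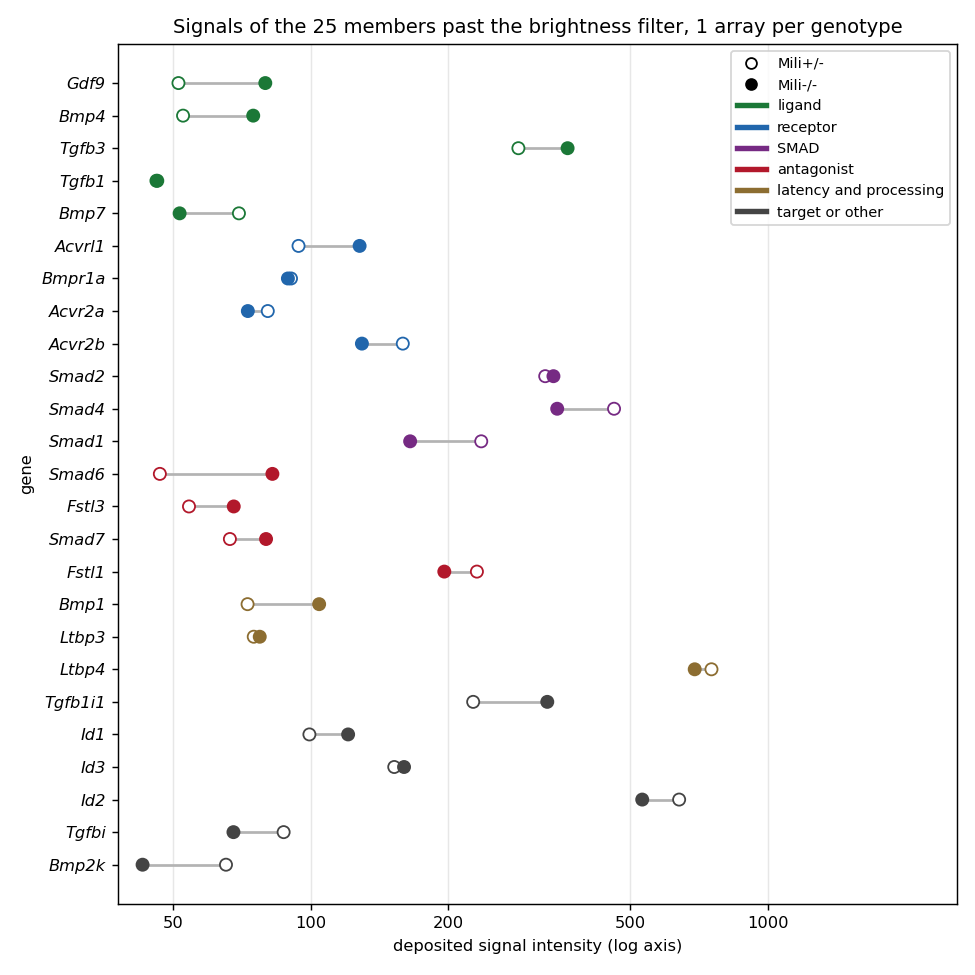
Deposited signal intensity (log axis) of the 25 members past the brightness filter, coloured by role, with open circles for the Mili+/- array and filled circles for the Mili-/- array. Smad6 runs from 46.8 to 82.5 and Smad4 from 461 down to 346, while the circles of Tgfb1, at 46.0 and 46.2, coincide.

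Of the 17 ligand genes 5 passed the filter, and 4 of them lay above the median gene. Gdf9, a ligand best known from the oocyte, read 51.4 on the Mili+/- array and 79.6 on the Mili-/- array. Its difference of 0.52, a 1.43-fold higher level, was the highest among ligands past the filter. Bmp4 had 52.6 and 74.9 (difference 0.40, 1.32-fold). That probe set carries a suffix for sequence shared with other transcripts. The gene's dimmer probe set, under the filter and suffixed for relaxed probe selection, had 26.9 and 27.8 (-0.06). The higher Mili-/- value of Bmp4 thus rests on the brighter one, and no unsuffixed probe set read the gene.

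Tgfb3 encodes a TGF-beta that loosens Sertoli cell junctions. Its signals were 284.8 and 364.9 (0.25, 1.19-fold), and it stood 0.37 above the median gene. A very dim second probe set read 8.3 and 2.1. Tgfb1, the founding TGF-beta, was level at 46.0 and 46.2. Its difference of -0.10 became 0.01 without centring, so it has no settled direction. Bmp7 was the ligand that went the other way, with 69.7 in Mili+/- and 51.7 in Mili-/- (-0.54, 1.45-fold lower). The BMP ligands past the filter, Bmp4 and Bmp7, thus differed in direction from each other.

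The other 12 ligand genes, Bmp2, Bmp5, Bmp6, Bmp8a, Bmp8b, Bmp10, Bmp15, Gdf3, Gdf5, Gdf10, Gdf11 and Tgfb2, stayed under the filter. Bmp8b, which supports germ cells, read 2.9 and 4.2, and the oocyte factor gene Bmp15 read 2.3 on both arrays. These signals lay under the floor at which values were held, 6.4 for Mili+/- and 6.9 for Mili-/-, and have no order. Gdf11 went from 4.0, also under the floor, to 13.7. Tgfb2 read 23.8 and 22.5, and Bmp6 read 25.3 and 26.3.

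Of the 11 receptor genes 4 passed the filter, and 3 of them lay below the median gene. Acvr2b and Acvr2a encode the type II receptors for activins, which some BMPs share. Acvr2b had 159.1 in Mili+/- and 129.5 in Mili-/- (-0.41, 1.33-fold lower). Acvr2a had 80.6 and 72.9 (-0.25), and its dimmer probe set had 27.7 and 27.4 (-0.13). Both were lower under all 4 scalings, but neither stood further from the median gene than the probe set SD (-0.28 and -0.13). Bmpr1a, a type I receptor for BMP2 and BMP4, had 90.6 and 89.2, and its difference of -0.13 was that of the median gene.

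Acvrl1 encodes ALK1, a type I receptor of blood vessel endothelium. Its probe sets disagreed. The brightest had 94.1 and 128.0 (0.33, 1.26-fold) and a second had 56.0 and 71.2 (0.24), while the other had 50.3 and 40.1 (-0.44). The first and the last carry suffixes for relaxed probe selection or shared sequence. No direction is therefore given for Acvrl1.

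The receptor genes under the filter were Acvr1, Acvr1b, Bmpr1b, Bmpr2, Tgfbr1, Tgfbr2 and Tgfbr3. Tgfbr1 and Tgfbr2, which form the TGF-beta receptor, gave 8.9 and 6.8 and then 6.5 and 6.1, at or near the floor, so their probe sets carried little signal on either array. Bmpr2, the BMP type II receptor gene, had 26.6 and 35.9 (0.32). Acvr1b, which encodes the activin type I receptor ALK4, was the sole member past 2-fold without the filter. Its signal was 5.4 in Mili+/- and 30.8 in Mili-/-, a difference of 2.16 with the former held at the floor. Among all genes under the filter 8.3% differed 2-fold, so changes of this size are common at such signals.

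Among the receptor-regulated SMADs and SMAD4, the members past the filter were Smad1, Smad2 and Smad4. Smad4 encodes the partner that both branches share. It read 461.1 on the Mili+/- array and 346.3 on the Mili-/- array (-0.52, 1.44-fold lower), and 7% of genes past the filter had a lower difference. Smad1, the BMP-branch SMAD, had 236.2 and 165.1 (-0.63, 1.54-fold lower) in its brightest probe set. That probe set is suffixed, and the unsuffixed one had 121.2 and 110.5 (-0.24). Both Smad1 probe sets were thus lower, by unequal amounts.

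Smad2, the SMAD of the TGF-beta and activin branch, had 326.0 and 339.8. Its difference of -0.05 lay 0.08 above the median gene and was 0.06 without centring. Smad1 and Smad4 therefore stood below the median gene by more than the probe set SD (-0.50 and -0.40), and Smad2 did not. For Smad1 this rests on the suffixed probe set, since without suffixed probe sets it stood at -0.11 from the median gene, within the SD. Markers of spermatogonia were also lower on the Mili-/- array, 7 of 8 that passed the filter on both arrays lying below the median gene, and their part in the SMAD values was not tested. Smad3 and Smad5 stayed under the filter. Smad3 read 5.7, under the floor, and 11.3, and Smad5 read 13.3 and 20.3 (0.50).

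**Figure D2:**
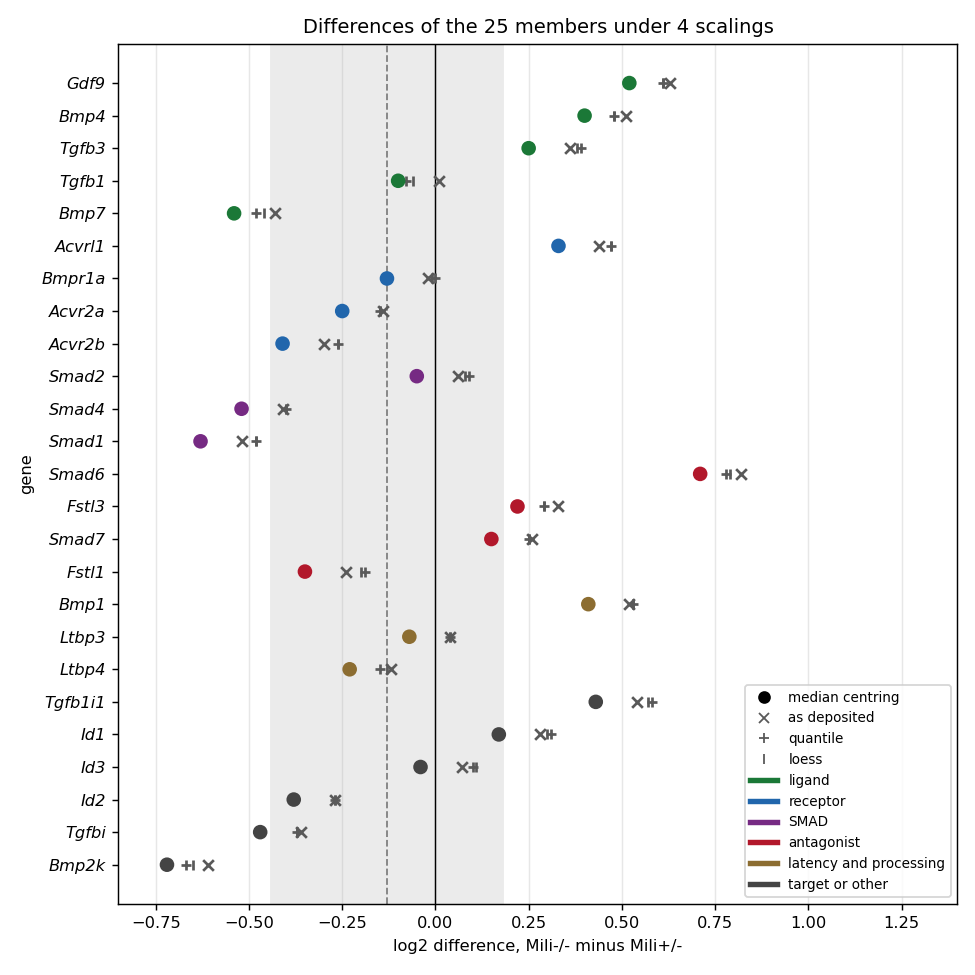
Log2 difference (Mili-/- minus Mili+/-) of the 25 members by gene. Coloured circles are the values centred on array medians, grey symbols the values as deposited, after quantile normalization and after loess. The dashed line is the median of all genes past the filter (-0.13) and the grey band 1 probe set SD (0.31) to each side. Smad6 is the furthest right and Bmp2k the furthest left, and the 4 genes Tgfb1, Smad2, Ltbp3 and Id3 cross 0 with the scaling.

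Inhibitors and antagonists had 4 of 7 genes past the filter, with 3 of them above the median gene. Smad6, the inhibitory SMAD of the BMP branch, had the highest difference of the members past the filter. Its signal was 46.8 on the Mili+/- array and 82.5 on the Mili-/- array (0.71, 1.63-fold), and 98.5% of genes past the filter had a lower difference. That share covers genes of all brightness past the filter. Bright genes spread less, and the Mili+/- signal of Smad6 lay near the filter (38.5). Under the other scalings Smad6 stood between 0.78 and 0.82. Smad7, the inhibitory SMAD that acts on both branches, had 66.6 and 79.9 (0.15, 1.11-fold), less than the probe set SD from the median gene (0.28). Each of these genes was read by 1 probe set. Of 9 endothelial markers measured, 6 were above 0 and 3 below, with 5 of the 9 under the filter. Of the 3 past the filter on both arrays, 1 lay above the median gene. The part of endothelial cells was not tested.

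Fstl3 and Fstl1 are relatives of the activin-binding protein follistatin. Fstl3 had 54.2 and 67.9 (0.22) and Fstl1 had 231.1 and 196.1 (-0.35), so they lay on opposite sides of 0. Relative to the median gene they stood at 0.34 and -0.22. Follistatin itself (Fst) was dim at 21.3 and 22.3, and so was the BMP antagonist gene Nog at 30.6 and 25.4. The other BMP antagonist measured, Chrd, lay under the floor on both arrays (4.5 and 5.8).

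Smad6 and Id1 to Id3 are known direct targets of BMP-activated SMADs, and Id proteins hold back differentiation by binding basic helix-loop-helix factors. Their signals did not move together. Id1 had 99.4 and 120.8 (0.17, 1.13-fold), Id3 had 152.4 and 160.1 (-0.04), and Id2 had 640.0 and 531.4 (-0.38, 1.30-fold lower). Id3 turned to 0.07 without centring, while Id1 and Id2 kept their signs under all 4 scalings. Relative to the median gene, Id1 stood at 0.30, Id3 at 0.09 and Id2 at -0.25, none beyond the probe set SD, against 0.83 for Smad6.

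No upstream sequence was available for Id1, which also lay between Smad6 and Id2. The bases just upstream of the start sites of Smad6, Id2 and Id3 are shown because these BMP target genes took the high, the low and a middle position. They are the 250 bases before the start in RefSeq's GRCm38.p6 table, 5′ to 3′ on the gene's strand: chr9:64022060-64022309 (minus strand) for Smad6, chr12:25096093-25096342 (minus strand) for Id2 and chr4:136143572-136143821 (plus strand) for Id3. Capitals mark matches, on both strands, to GTCT (the SMAD box, AGAC on the other strand) and to GGCGCC, a GC-rich SMAD element that is its own reverse complement.
Smad6: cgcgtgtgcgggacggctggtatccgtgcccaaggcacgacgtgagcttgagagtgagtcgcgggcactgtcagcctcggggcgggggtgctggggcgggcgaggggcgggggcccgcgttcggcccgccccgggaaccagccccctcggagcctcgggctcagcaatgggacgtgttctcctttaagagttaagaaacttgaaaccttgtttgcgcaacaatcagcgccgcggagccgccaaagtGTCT
Id2: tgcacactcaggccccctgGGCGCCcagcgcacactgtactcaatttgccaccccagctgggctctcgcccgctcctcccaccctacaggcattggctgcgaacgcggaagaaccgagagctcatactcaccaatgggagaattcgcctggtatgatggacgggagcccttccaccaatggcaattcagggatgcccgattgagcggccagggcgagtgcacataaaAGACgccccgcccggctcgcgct
Id3: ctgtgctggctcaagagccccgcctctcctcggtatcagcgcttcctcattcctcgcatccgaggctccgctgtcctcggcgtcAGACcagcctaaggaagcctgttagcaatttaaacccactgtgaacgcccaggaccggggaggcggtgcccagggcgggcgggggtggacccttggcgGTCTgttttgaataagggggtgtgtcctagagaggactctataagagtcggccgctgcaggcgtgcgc
Smad6 held 1 GTCT match, Id2 held 1 and Id3 held 2, a motif found in 82.9% of all 32851 windows of this length in the table. The GGCGCC element occurred once, in Id2, and in 9.59% of all windows. The palindrome GTCTAGAC, which contains the SMAD box on both strands, was in none of the 3 windows and in 0.167% of all. Matches are a description of these letters and do not say that a SMAD binds there.

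The genes that store or process ligands had 3 of 5 members past the filter. Bmp1 is no BMP ligand but a metalloprotease that matures collagen and frees BMPs from Chordin. Its brighter probe set had 72.8 and 104.4 (0.41, 1.33-fold), while the other had 75.4 and 78.1 (-0.06), so Bmp1 too has no settled direction. The latent TGF-beta binding protein gene Ltbp4 had 753.2 and 692.2 (-0.23), and Ltbp3 had 75.1 and 77.4 (-0.07, or 0.04 without centring). Neither Ltbp gene stood apart from the median gene (-0.11 and 0.06). Ltbp1, at 17.0 and 19.6, and Ltbp2, at 21.7 and 18.4, were under the filter.

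The rule also took in genes named for their response to these ligands. Tgfb1i1, which encodes the focal adhesion protein Hic-5 of smooth muscle and other contractile cells, had 226.8 and 329.4 (0.43, 1.35-fold). Tgfbi encodes a matrix protein induced by TGF-beta, and it had 87.3 and 67.8 (-0.47, 1.39-fold lower). Bmp2k, an endocytic kinase gene named for its induction by BMP2, had 65.3 and 42.9 (-0.72, 1.64-fold lower), the lowest difference among members past the filter. The TGF-beta-named genes Tgfb1i1 and Tgfbi thus went in opposite directions, each beyond the probe set SD from the median gene under all 4 scalings.

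**Figure D3:**
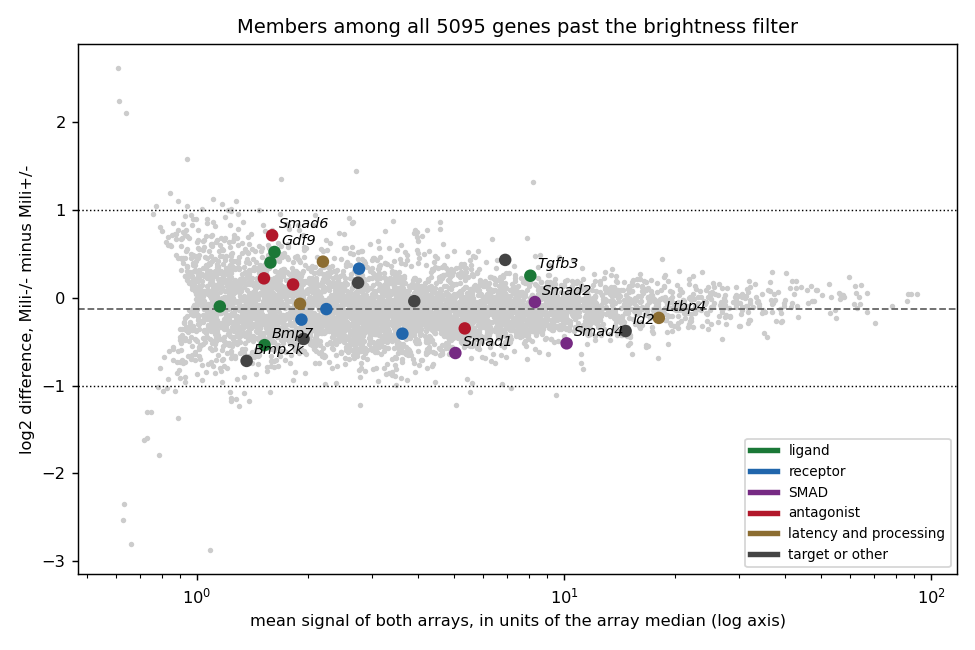
Log2 difference (Mili-/- minus Mili+/-) against mean signal in units of the array median (log axis) for all 5095 genes past the brightness filter (grey) and the 25 members (coloured by role). Dotted lines mark 2-fold and the dashed line the median gene (-0.13). All coloured points lie between the dotted lines, and the grey cloud narrows to the right.

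Bright genes showed a narrower spread of differences. Among the 2786 genes past the 75th percentile on either array, the central 95% of differences ran from -0.64 to 0.38. The 10 members in that range were Acvr2b, Fstl1, Id2, Id3, Ltbp4, Smad1, Smad2, Smad4, Tgfb1i1 and Tgfb3. Their median was -0.29 against -0.13 for all genes that bright, and 9 of the 10 lay inside the range. The exception was Tgfb1i1, above its upper end. Smad1 (-0.63) lay just inside its lower end.

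Probe sets of 1 gene put a limit on these values. Of the 10 members with more than 1 probe set, 3 had more than 1 past the filter, namely Acvrl1, Bmp1 and Smad1. For Smad1 they shared the sign, and for Acvrl1 and Bmp1 they did not. The gap between the highest and lowest probe set was 0.38 for Smad1, 0.47 for Bmp1 and 0.77 for Acvrl1. A gap is a wider measure than the probe set SD of 0.31, so these gaps were not read as unusual.

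**Figure D4:**
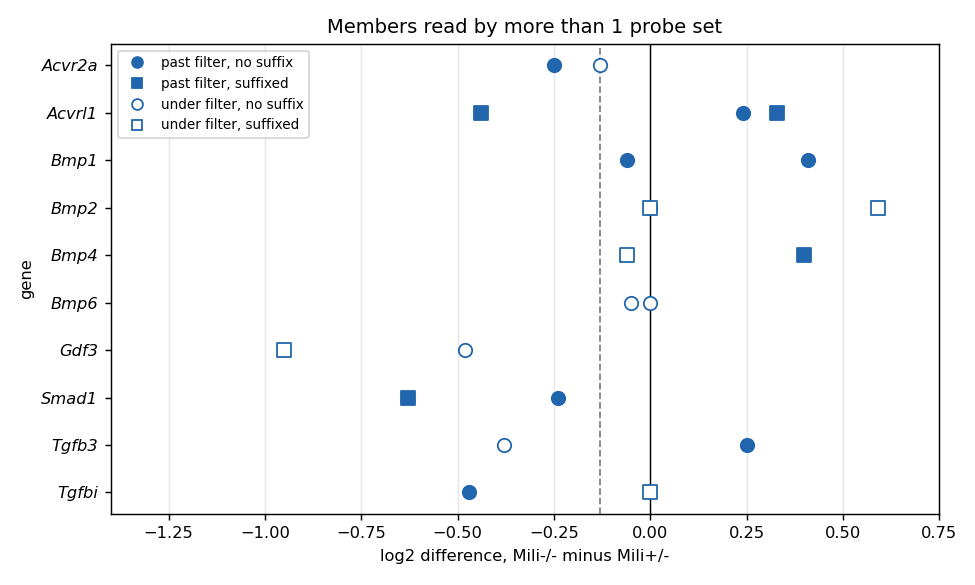
Log2 difference (Mili-/- minus Mili+/-) of each probe set of the 10 members read by more than 1, by gene. Filled symbols passed the brightness filter, squares carry a suffix for shared sequence or relaxed probe selection, the solid line is 0 and the dashed line the median gene (-0.13). A circle of Bmp2 lies hidden under its square at 0, and filled symbols of Acvrl1 and Bmp1 lie on both sides of 0.

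Other genes of the pathway, outside the naming rule, were taken from a list of ligands, receptors, regulators and targets. Of 72 listed genes 51 were measured and 38 passed the filter. Their median difference was -0.12, 0.01 above the median gene. Of the 38, 1 was 2-fold different, where 0.844% of all genes past the filter were. That gene, Skil, encodes SnoN, a repressor of SMAD transcription, and it had 42.8 in Mili+/- and 22.6 in Mili-/- (-1.03, 2.04-fold lower). Its probe set is suffixed. It reached the brightness filter on the Mili+/- array but not on the Mili-/- array, a selection toward lower values, and without centring the difference was -0.92. Its relative Ski had 438.6 and 373.9 (-0.34). The TGF-beta-activated kinase gene Map3k7 had 113.8 and 89.0 (-0.46), and the coactivator gene Crebbp had 61.4 and 52.8 (-0.33). Of the 12 intracellular regulators past the filter on both arrays, 8 lay below the median gene.

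Ligands of the family outside the naming rule went both ways. Amh, the anti-Müllerian hormone gene of Sertoli cells, had 61.6 and 96.5 (0.54), and the inhibin alpha gene Inha had 710.4 and 946.2 (0.30). The inhibin and activin beta B gene Inhbb had 163.8 and 129.9 (-0.44), and Inhbc had 38.5 and 53.0 (0.35). The beta A gene Inhba had 39.9 and 37.7 (-0.19), -0.07 from the median gene, and reached the filter on the Mili+/- array only. The alpha subunit, which makes inhibin, was thus higher, and the beta B subunit, shared by inhibin and activin, was lower. Eng, a TGF-beta co-receptor gene, had 220.0 and 200.1 (-0.25).

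In the matrix group, the fibrillin gene Fbn2 had 56.7 and 41.9 (-0.55). The convertase gene Furin (254.1 and 256.0, -0.10), the integrin gene Itgav (365.9 and 348.1, -0.18) and the BMP antagonist gene Nbl1 (178.1 and 170.9, -0.17) lay near the median gene. A second Itgav probe set stood at 0.18. Furin turned to 0.01 without centring. Among target genes, the cell cycle inhibitor gene Cdkn1a had 48.6 and 65.6 (0.32), although its dim second probe set stood at -0.30. Gadd45b had 51.0 and 67.1 (0.29), and 0.04 in its other probe set. Id4, expressed in spermatogonial stem cells, stood at -0.33 and reached the filter on the Mili+/- array only, and Hes1 had 81.8 and 75.1 (-0.23). Of the 10 target genes past the filter on both arrays, 7 lay above the median gene.

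Marker lists of testis cell types differed between the arrays as well, and in bulk RNA fewer cells of a type and less RNA per cell cannot be told apart. Counts are of markers past the filter on both arrays, since a marker that passed on 1 array alone had to be higher there. The summed signals in brackets are of all measured markers of a list, as deposited and not centred on the array medians (38.5 and 41.6). They therefore include markers that passed on 1 array alone or on neither, and do not belong to the counts. Of 8 such spermatogonial markers, 7 lay below the median gene (summed signal of the 12 measured 4105 and 3454, Ret under the floor on both arrays). Of 14 Sertoli cell markers, 12 lay above it (7424 and 8727). Of all 9 endothelial markers measured, many of them dim, 6 were above 0 and 3 below. Those past the filter on both arrays lay above the median gene in 1 of 3 (666 and 674). Cdh5, at 98.2 and 144.6 (0.45), was that marker, and Mcam, at 231.4 and 164.9 (-0.60), was below. For peritubular cells it was 4 of 7 (2354 and 2486). All 3 adipose markers that passed on both arrays lay above it (348 and 634, Cidec under the floor on both arrays), as did both erythroid ones (1551 and 2093, Epb42 under it). For macrophages it was 4 of 6 (590 and 686.5, Adgre1 under it), and for Leydig cells 1 of 3 (810 and 759). Their part in the differences of Smad6, Smad4, Smad1, Tgfb1i1 and the other members was not tested.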

How the data were processed

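Polyadenylated RNA of day 10 testes was hybridised to 2 single-colour Affymetrix arrays, 1 per genotype. The deposited table gives a signal intensity on a linear scale for each probe set. From the values, the authors had scaled both arrays alike, since the mean after trimming 2% at either end was 100.05 on both. How the signals were computed is not given in the sources used here. The table held 12488 probe sets, and 66 controls were left out. Gene symbols came from a platform annotation. Of the 10833 probe sets with 1 symbol, 10817 were found in RefSeq by Entrez ID and took the RefSeq symbol. For all 63 member probe sets both symbols were the same.

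Signals were divided by the array median, floored at the 20th percentile of both arrays together (6.4 and 6.9 as deposited signals), put on the log2 scale and subtracted. Every member past the filter is named, and of other pathway genes the 4 with the largest absolute difference in each list, as well as Inhba. The members and lists were chosen with earlier results of these data known. The code was tested on simulated data. With 1 array per genotype there is no test, and the number of arrays limits the precision. Alternatives were no centring, quantile normalization, loess (span 0.4), other floors and filters, the mean over probe sets, no suffixed probe sets, and fold thresholds of 1.5 and 3. Python 3.11.15, NumPy 2.4.6, pandas 2.3.3 and statsmodels 0.14.6 were used.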

Additional observations from a re-analysis of the deposited data

How the results depend on the processing

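No paired analysis was possible because each genotype had 1 array. The count of members 2-fold different was 0 under every alternative except no brightness filter (1, Acvr1b) and a threshold of 1.5-fold (3). The members' median, -0.07, became 0.04 without centring, after quantile normalization and after loess, and -0.29 when the 75th percentile was the filter, which left 10 members. Relative to the median gene it was 0.06 centred and not centred, and 0.05 with quantile normalization and loess. For the other pathway genes, the count of 1 (Skil) became 0 without centring, with the floor at the 40th percentile, with the filter at the 75th percentile or on both arrays, without suffixed probe sets and at 3-fold, and 2 without the filter. Their median of -0.12 became -0.01 without centring and 0.01 after quantile normalization or loess. Of 234 values of single members under alternatives, 233 moved by no more than the probe set SD, but many of them could not move. Other floors and filters left these members' values unchanged, since all passed the filter on both arrays, so the count is no measure of robustness. The 1 value that moved further was that of Smad1, at -0.24 without suffixed probe sets. That setting left out Bmp4, and 7 of the remaining 24 members were higher and 4 lower than the median gene by over the SD. Dim signals limit what can be said of the 26 members under the filter, since no detection calls were used here.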
